A study of Mus musculus with 13 samples.

Results

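The transcripts of 9 keratin genes were followed through the conversion of mouse embryonic fibroblasts (MEFs) towards thymic epithelial cells (TECs). The genes were chosen by symbol from the 24394 genes of the deposited count table. Krt7, Krt8, Krt18 and Krt19 are keratins of simple epithelia, Krt5, Krt14, Krt15 and Krt17 are keratins of basal and stratified epithelia, and Krt80 is a further type II keratin of epithelia. All 9 were found in the table and all 9 passed the filter on low counts.

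Bulk RNA sequencing covered 13 libraries in 6 groups. MEFs were primary E13.5 fibroblasts carrying 1 iFoxn1 allele, an inducible copy of Foxn1 that Cre recombinase switches on. They received no treatment (n = 2). Induced TECs (iTECs) were such fibroblasts nucleofected with a plasmid that drives Cre from the PGK promoter, a promoter active in most cell types. They were taken at day 2 (n = 2), at day 10 (n = 3), and at day 12 after sorting into cells with the epithelial surface protein Epcam (Epcam-positive, n = 2) and cells without it (Epcam-negative, n = 2). Fetal TECs at E15.5 were the positive control (n = 2). The genotype field of the labels is not filled in. The protocol text states at most 5 passages for the fibroblasts and a sort by flow cytometry, and does not say whether replicates were separate cultures or animals, so that p-values may measure technical spread only. The study addressed how Foxn1, the transcription factor that TECs depend on, programs fibroblasts into this cell type.

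Keratins form intermediate filaments from pairs of 1 type I and 1 type II protein. Krt8 (type II) and Krt18 (type I) are the founding pair of simple epithelia and mark the cortical epithelium of the thymus, whereas Krt5 (type II) and Krt14 (type I) pair in basal cells of stratified epithelia and mark the medullary thymic epithelium. Krt7 and Krt19 are found in ductal and other simple epithelia, Krt15 in basal cells and Krt17 in skin appendages and stressed epidermis. Most type II genes lie in a cluster on chromosome 15 and most type I genes in a cluster on chromosome 11. Krt18 is the exception, a type I gene beside Krt8 at the edge of the type II cluster.

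Library totals lay between 35805780 and 86465460 counts. Foxn1 was at 292 to 468 CPM (counts scaled to library size) in the 11 libraries outside the MEFs, against 18.3 and 13 CPM in MEFs. Several features separated libraries in ways that the groups do not name. The rank correlation of level with transcript length was between -0.131 and -0.055 in fetal TECs and Epcam-positive replicate 2, against 0.261 to 0.311 in the other 10 libraries, so that long transcripts were low in those 3. The female transcript Xist was at 688 to 2475 CPM in MEFs and Epcam-negative iTECs and at 10.6 CPM or less elsewhere, while summed Y-linked transcripts were at 41.6 to 302 CPM in the other 4 groups and at 0.0144 CPM or less in MEFs and Epcam-negative iTECs. Epcam-negative iTECs thus differed in sex transcripts from both Epcam-positive and day 10 iTECs. They are not treated here as a fraction or later stage of the same cultures. Finally, the 2 Epcam-positive libraries differed from each other more than any other replicate pair did. The median squared difference between their counts was 729 times that of counting error alone. It was 1.81 to 2.89 times for the day 10 pairs and 13.2 times or more in every other group. The part of these features in the results was not tested, and sex cannot be told apart from the contrast wherever MEFs or Epcam-negative iTECs are set against another group, other than against each other. Epithelial markers (7 genes) summed to 960 to 1498 CPM in fetal TECs and 95.3 to 100 CPM at day 10. The sums were 0.399 to 0.494 CPM at day 2 and 0.263 to 0.421 CPM in MEFs. At day 10 Cdh1 (44.4 CPM on average) and Cldn4 (43.7 CPM) gave most of the sum, with Epcam at 5.2 and Esrp1 at 3.39 CPM. Cldn3, Cldn6 and Cldn7 averaged 0.179, 0.272 and 0.16 CPM at day 10, against 111, 12.7 and 159 CPM in fetal TECs. Of 6 medullary TEC markers, Aire, Fezf2 and Ccl21a were at 0 outside fetal TECs. Cldn3 and Tnfrsf11a were detected in every group. Cldn4, a tight junction gene of many epithelia that is on both lists, averaged 75.1 CPM in Epcam-positive iTECs, against 0.0207 CPM in MEFs.

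Promoter sequence is shown for the simple pair, Krt18 and Krt8, and for Krt5, a basal keratin first called at day 10. RefSeq (GRCm38.p6) gave a window of 250 bases before to 50 bases after the gene start for 5 of the 9 genes. Each window is printed 5′ to 3′ on the gene's own strand, in lower case, with capitals at ACGC or its reverse complement GCGT, the core of the published FOXN1 binding motif. The windows are chr15:102027966-102028265 on the plus strand for Krt18, chr15:102004293-102004592 on the minus strand for Krt8, and chr15:101712856-101713155 on the minus strand for Krt5.
Krt18: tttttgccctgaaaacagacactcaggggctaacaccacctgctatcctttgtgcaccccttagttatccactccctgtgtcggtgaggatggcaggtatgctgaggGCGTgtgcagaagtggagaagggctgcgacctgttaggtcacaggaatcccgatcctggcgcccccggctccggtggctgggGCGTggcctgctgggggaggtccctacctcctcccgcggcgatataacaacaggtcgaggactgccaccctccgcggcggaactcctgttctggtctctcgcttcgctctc
Krt8: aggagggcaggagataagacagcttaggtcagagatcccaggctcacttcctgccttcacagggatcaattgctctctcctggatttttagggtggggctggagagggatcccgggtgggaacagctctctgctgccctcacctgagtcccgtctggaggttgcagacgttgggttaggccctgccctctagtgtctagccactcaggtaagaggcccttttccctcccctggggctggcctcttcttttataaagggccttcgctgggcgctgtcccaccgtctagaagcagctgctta
Krt5: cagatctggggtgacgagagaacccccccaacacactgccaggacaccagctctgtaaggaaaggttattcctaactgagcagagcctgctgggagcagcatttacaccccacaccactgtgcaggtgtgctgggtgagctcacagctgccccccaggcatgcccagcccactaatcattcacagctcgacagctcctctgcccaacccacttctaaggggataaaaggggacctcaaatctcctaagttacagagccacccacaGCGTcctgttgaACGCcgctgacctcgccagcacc
The Krt18 window held ACGC 2 times, at 143 and 61 bases before the start, and the Krt8 window held none. The Krt5 window held it 2 times, both in the transcribed bases after the start. Among 32851 windows of the same length 55.3% held ACGC at least once on either strand, so these counts describe the letters only. The longer motif GACGC was present in the Krt5 and Krt7 windows, and in 27.2% of all windows. TATAAA was found in the Krt8 window alone among the 5, as 2 overlapping matches on opposite strands (13.6% of all windows). These matches began 3 and 1 bases before the start. The RefSeq start lay 36 (Krt18), 140 (Krt8) and 7 (Krt5) bases from the 5′ end of the gene in GENCODE, another annotation. For Krt7 and Krt14 it lay 1360 and 1518 bases away. The starts of Krt8 and Krt18 are 23.9 kb apart on opposite strands and are transcribed away from each other.

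In MEFs the keratin transcripts were at or near 0. Krt18 was at 0.65 and 0.682 CPM, from 47 and 34 counts, Krt8 at 0.0415 and 0.221 CPM, from 3 and 11 counts, and Krt19, the highest of the 9 per kb of transcript, at 2.36 and 2.13 CPM. Krt80 was at 0.484 and 0.401 CPM and Krt7 at 0.152 and 0 CPM. Krt5, Krt14 and Krt17 had no count in either MEF library, and Krt15 had 3 counts in 1. In a library of this depth 3 counts, the limit that a count of 0 allows, stand for 0.03 to 0.0776 CPM, a limit that covers counting error only.

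**Figure D1:**
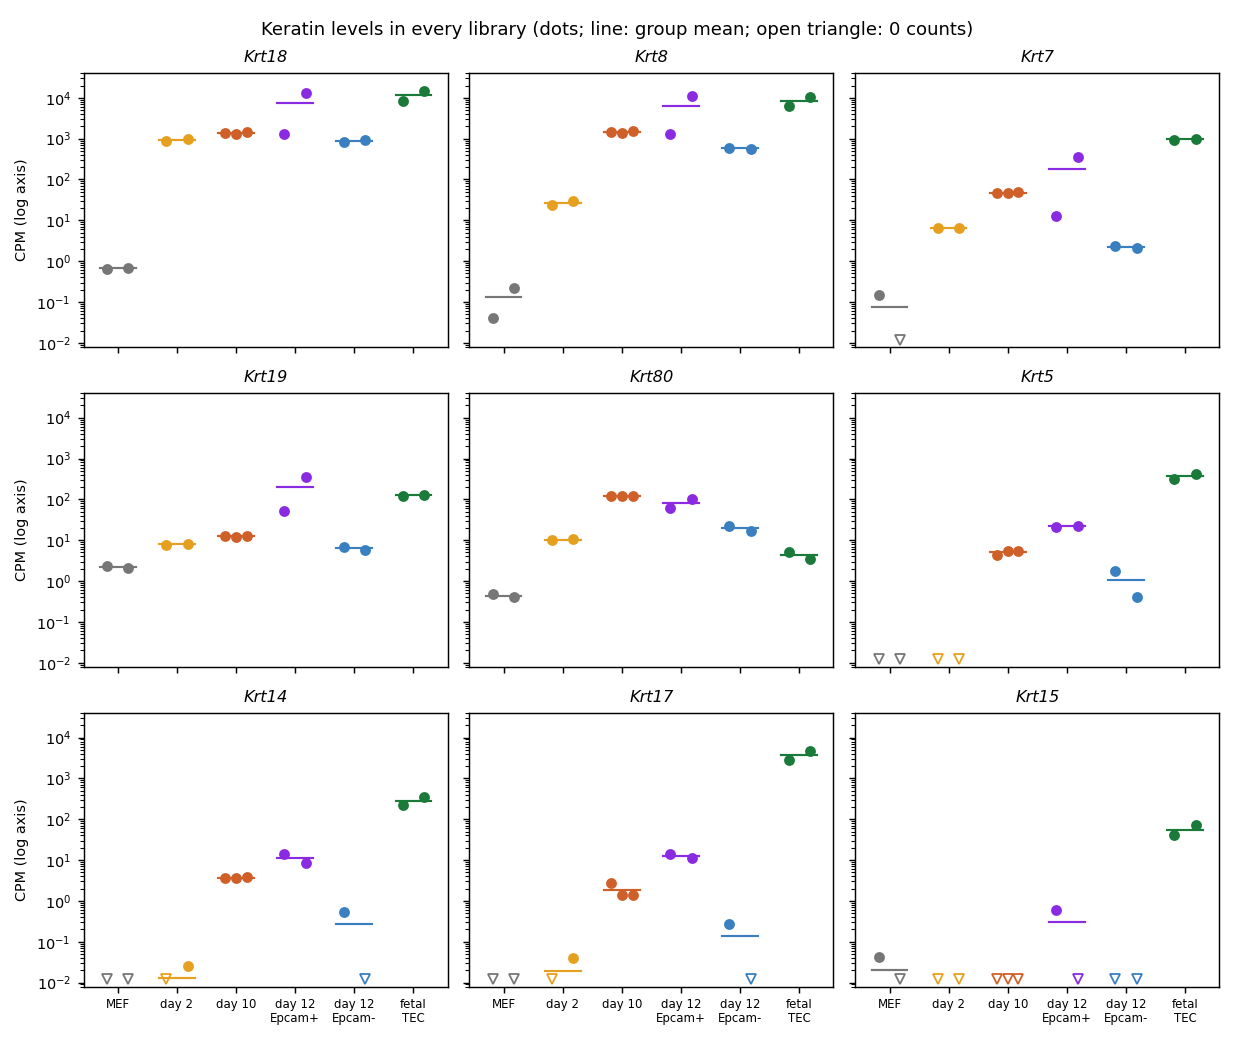
Level of each of the 9 keratins in every library (CPM, log axis), with groups in the order MEF, day 2, day 10, day 12 Epcam-positive, day 12 Epcam-negative and fetal TEC; each point is 1 library and open triangles mark a count of 0. Krt18 lies at 892 and 987 CPM at day 2, when Krt8 lies at 23.9 and 29.2 CPM and the 4 basal keratins at 0 or near it.

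At day 2, Krt18, Krt8, Krt7 and Krt80 were higher than in MEFs, and the 4 basal keratins were not detected above 3 counts in either group. These 4 of 9 rose by edgeR's quasi-likelihood test (adjusted p under 0.05, Benjamini-Hochberg over 17004 genes), where 2.87% of all genes tested were called higher and 2.65% lower. In bulk RNA, more cells of a type and more RNA per cell cannot be told apart. Krt18, the type I partner of the simple pair, was at 892 and 987 CPM at day 2, against 0.65 and 0.682 CPM in MEFs, a log2 change of 10.46 ± 1.16 (SE, adjusted p = 0.000938). Krt8 was at 23.9 and 29.2 CPM at day 2, against 0.0415 and 0.221 CPM in MEFs (7.72 ± 1.14, adjusted p = 0.00418). Both genes were far above MEFs in both libraries, yet Krt18 had by far the larger level of the pair, with 654 CPM per kb of transcript on average, beside 13.6 for Krt8. Krt80 was at 10.1 and 10.7 CPM at day 2, against 0.484 and 0.401 CPM in MEFs (4.55 ± 0.38, adjusted p = 0.000203). Krt7 was at 6.46 and 6.53 CPM at day 2, against 0.152 and 0 CPM in MEFs (6.25 ± 1.45, adjusted p = 0.0363). The groups did not overlap for any of these 4 genes. Krt19 was at 7.49 and 8.28 CPM at day 2, against 2.36 and 2.13 CPM in MEFs, again without overlap, but its log2 change of 1.81 ± 0.65 did not pass the test (adjusted p = 0.164, and 5.17e-05 to 0.552 over the alternatives tried).

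The call of Krt7 was lost in 12 of 22 alternatives, among them leaving out either MEF library or either day 2 library, with an adjusted p of 0.219 at most; its log2 change was 5.40 without MEF replicate 2, and at least 108-fold without MEF replicate 1, which held its only MEF counts. Krt8 kept its call in all 22, with a log2 change of 6.90 without MEF replicate 1 and a ratio of 651 (222 to 3156, 95% counting interval) without MEF replicate 2.

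Some other genes of the keratin machinery were also called at day 2, where 2.87% of all genes tested were called higher and 2.65% lower. Of 19 other epithelial keratins in the count table, 16 had 3 counts or fewer in both groups and 1 rose, Krt16, a stress keratin of stratified epithelia, with 0.326 and 0.585 CPM at day 2 and no count in MEFs (at least 18.6-fold, adjusted p = 0.00931). Of 16 genes for filament anchors and partners 2 rose: Pkp3, a desmosomal plaque protein, by at least 6.03-fold (adjusted p = 0.0173), and Dsp, the desmoplakin that ties keratin filaments to desmosomes, with 5.06 and 5.27 CPM at day 2, against 0.373 and 0.722 CPM in MEFs (3.25 ± 0.67, adjusted p = 0.0213). Of 16 transcription regulators of epithelia 2 rose, Grhl1 (3.37 ± 0.45, adjusted p = 0.00247) and Ovol1 (4.34 ± 0.87, adjusted p = 0.0196). The median log2 change was 0.17 over the 15 anchors and 0.93 over the 11 regulators with more than 3 counts in a group, with genes at 0 in a group set to their bound, and -0.02 over all genes tested. Of 10 other intermediate filament genes 1 rose and 1 fell (median log2 change -0.28). Nes, the nestin of progenitor cells, rose to 481 CPM at day 2, against 105 CPM in MEFs (2.20 ± 0.45, adjusted p = 0.0206), and Sync, a syncoilin of muscle, fell by 4.16 ± 0.91 on the log2 scale (adjusted p = 0.0288).

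Between day 2 and day 10, Krt8, Krt80, Krt5, Krt14 and Krt17 rose. Of the 9 genes 5 rose and none fell by edgeR's test, against 8.24% of all genes called higher and 4.41% called lower. Krt8 was at 1447, 1412 and 1542 CPM at day 10, against 23.9 and 29.2 CPM at day 2 (log2 change 5.79 ± 0.98, adjusted p = 0.00468). Krt18 was at 1374, 1316 and 1462 CPM at day 10, against 892 and 987 CPM at day 2, a log2 change of 0.56 ± 0.72 that did not pass (adjusted p = 0.734). Its log2 change was 0.49 to 0.63 over the alternatives. With day 10 and day 2 fitted alone, Krt18 did pass edgeR's test (0.53, adjusted p = 0.00066). The groups did not overlap for either gene, and the levels per kb at day 10 averaged 749 CPM for Krt8, beside 963 for Krt18. Krt80 was at 124, 123 and 120 CPM at day 10, against 10.1 and 10.7 CPM at day 2 (3.55 ± 0.34, adjusted p = 0.000261). Krt7 was at 46.6, 47.5 and 48.6 CPM at day 10, against 6.46 and 6.53 CPM at day 2 (2.87 ± 1.12, adjusted p = 0.138); it was called in 5 of 22 alternatives, with an adjusted p between 1.68e-07 and 0.498 over all of them. Krt19 was at 12.9, 11.8 and 12.8 CPM at day 10, against 7.49 and 8.28 CPM at day 2 (0.67 ± 0.58, adjusted p = 0.562). It too passed with day 10 and day 2 fitted alone (0.64, adjusted p = 0.000601). Krt7 and Krt19 were thus above day 2 in every day 10 library, with changes that did not pass in the fit of all libraries.

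The basal keratins appeared at day 10 at low levels. Krt5 was at 4.35, 5.53 and 5.33 CPM at day 10 and had no count at day 2, a difference of at least 223-fold (3 counts over the group; adjusted p = 0.000889). Krt14 was at 3.61, 3.61 and 3.8 CPM at day 10, against 0 and 0.026 CPM at day 2, a ratio of 242 (66.6 to 2002, adjusted p = 0.0179). Krt17 was at 2.77, 1.43 and 1.42 CPM at day 10, against 0 and 0.039 CPM at day 2, a ratio of 89.8 (30.4 to 438, adjusted p = 0.0216). Each of the 3 was present in every day 10 library and at 3 counts or fewer in each day 2 library. Krt15 had no count at day 2 or day 10. The calls of Krt8 and Krt14 were lost without either day 2 library (adjusted p 0.0668 and 0.0782 for Krt8, 0.127 and 0.169 for Krt14), and that of Krt17 without any 1 day 2 or day 10 library (0.0511 to 0.186). Without day 2 replicate 1 the ratios were 141 for Krt14 and 52.3 for Krt17 and the bound of Krt5 130-fold; without day 2 replicate 2, which held their only day 2 counts, they were bounds of 67.5-fold and 34.5-fold, and that of Krt5 was 93.2-fold.

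Set against MEFs, 8 of the 9 rose at day 10, where 9.42% of all genes tested were called higher and 6.58% lower; Krt15 was at 3 counts or fewer in both groups. This comparison shares its MEF libraries with that of day 2, and its day 10 libraries with that between the days. The log2 changes were 13.51 ± 1.37 for Krt8 (adjusted p = 0.000251), 11.02 ± 1.17 for Krt18 (0.00033), 9.12 ± 1.59 for Krt7 (0.00465), 8.10 ± 0.43 for Krt80 (2.05e-05) and 2.48 ± 0.64 for Krt19 (0.0276). Bounds were at least 207-fold for Krt5 (adjusted p = 0.000754), 150-fold for Krt14 (0.0119) and 76.4-fold for Krt17 (0.0123). The calls of Krt14, Krt17 and Krt19 were lost without either MEF library, and that of Krt19 also without any 1 day 10 library, with an adjusted p of 0.189 at most. Without MEF replicate 1 the change of Krt8 was 12.66 on the log2 scale and that of Krt7 a bound of 791-fold; without MEF replicate 2 the ratio of Krt8 was 35284 (12073 to 171098) and the log2 change of Krt7 8.27, and with 1 MEF library left the bounds of Krt5, Krt14 and Krt17 were between 31.2-fold and 122-fold.

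The day 2 level as a share of the day 10 level shows how much of each gene's later level was already reached. Krt18 was at 67.9% of its day 10 level at day 2, Krt7 at 13.7%, Krt80 at 8.51% and Krt8 at 1.81%. Krt19 was at 63.0%, but it had 2.24 ± 0.168 CPM in MEFs already (SD, n = 2), beside 12.5 ± 0.577 CPM at day 10 (SD, n = 3), and its day 2 change did not pass. Krt5, Krt14 and Krt17 had 3 counts or fewer at day 2, too few to place them in an order among themselves. From day 2 to day 10 Krt8 rose 55.3-fold, less than the bound of 223-fold for Krt5 and the interval of 66.6 to 2002 for Krt14. The interval of Krt17, 30.4 to 438, reached below the Krt8 value, as did that of Krt14 without day 2 replicate 1 (38.8 to 1167). These bounds and intervals cover counting error only. Krt18, Krt8, Krt7 and Krt80 were thus called above MEFs at day 2, and Krt5, Krt14 and Krt17 were first called at day 10.

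Some other keratins, filament anchors and epithelial transcription factors also rose at day 10. Of all genes tested, 9.42% were called higher than in MEFs and 6.58% lower. Against MEFs, 7 of the 19 other epithelial keratins rose and none fell, with a median log2 change of 4.29 over the 13 with more than 3 counts, genes at 0 in MEFs set to their bound, beside 0.01 over all genes tested. Krt6a, a keratin of stressed and stratified epithelia, was at 19.3, 18.8 and 22.2 CPM at day 10 and at 0 in MEFs (at least 819-fold, adjusted p = 0.000756), and Krt16 at 13.7, 14.1 and 13.3 CPM (at least 558-fold, adjusted p = 0.000303). Krt16, Krt14 and Krt17 are close relatives in sequence, and the authors' counting may split reads among them. Of the 16 anchors 8 rose and 1 fell (median 2.46), and of the 16 regulators 11 rose and none fell (median 4.18 with bounds). Dsp was at 855, 828 and 838 CPM at day 10, against 0.373 and 0.722 CPM in MEFs (10.59 ± 0.89, adjusted p = 0.000105). Grhl1, a grainyhead factor of epithelial barriers, averaged 88.0 ± 2.15 CPM at day 10 (SD, n = 3) and 0.102 ± 0.0312 CPM in MEFs (SD, n = 2), a log2 change of 9.70 ± 0.55 (adjusted p = 2.4e-05). The fibroblast filament gene Vim was still at 269 CPM at day 10, against 3117 CPM in MEFs, having fallen by 3.54 ± 0.67 on the log2 scale (adjusted p = 0.00695). Markers of mesothelium, another cell layer rich in simple keratins, also summed to more at day 10, with 72.6 to 83.8 CPM from 6 genes, of which Msln gave most, against 1.29 to 2.31 CPM in MEFs; their part in the keratin values was not tested. Macrophage genes summed to 1.73 to 2.38 CPM at day 10, against 2384 to 2411 CPM in MEFs.

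The ratio of Krt8 to Krt18 separated day 2 from every later iTEC group. The ratio was taken per kilobase of the longest coding transcript, 1958 bases for Krt8 and 1437 bases for Krt18. At day 2 it was 0.0197 (95% counting interval 0.0186 to 0.0208) and 0.0217 (0.0208 to 0.0226), so that Krt18 exceeded Krt8 by 50.8-fold and 46.1-fold. At day 10 it was 0.773, 0.787 and 0.774. It was 0.738 and 0.613 in Epcam-positive iTECs, 0.531 and 0.451 in Epcam-negative iTECs, and 0.552 and 0.505 in fetal TECs. The day 10 libraries were closest to equal amounts of the partners, and the fetal TEC values lay below both day 10 and Epcam-positive values and overlapped those of the Epcam-negative cells. Krt8 has the longer transcript of the pair, and long transcripts were low in both fetal TEC libraries and Epcam-positive replicate 2. The part of this in the ratio was not tested. In MEFs the ratio was 0.0468 (0.00933 to 0.146) and 0.237 (0.109 to 0.48), on too few Krt8 counts to place it.

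Over the 7 iTEC libraries of day 10 and day 12 the log2 ratio of Krt8 to Krt18 averaged -0.614 ± 0.318 (SD), against -5.6 ± 0.0981 in the 2 day 2 libraries. The difference of 4.98 gave p = 0.0556 by an exact two-sided permutation test over libraries, the smallest p that 7 against 2 allows (0.0741 adjusted over 4 such tests). Against the 2 fetal TEC libraries, which averaged -0.921 ± 0.0903, the difference was 0.308 (exact permutation p = 0.333, adjusted 0.333), with the iTECs between -1.15 and -0.346. This test pools 3 iTEC groups that differ among themselves: the 5 day 10 and Epcam-positive libraries lay above both fetal TEC libraries and the 2 Epcam-negative libraries did not, so its p does not speak for any 1 group. A ratio within a library is not altered by the scaling of libraries, though a loss of long transcripts could alter it. A processed pseudogene of Krt8 is annotated and is no row of the table, as is an overlapping noncoding transcript at the 5′ end of Krt8; how the authors' counting treated their reads is not given.

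**Figure D2:**
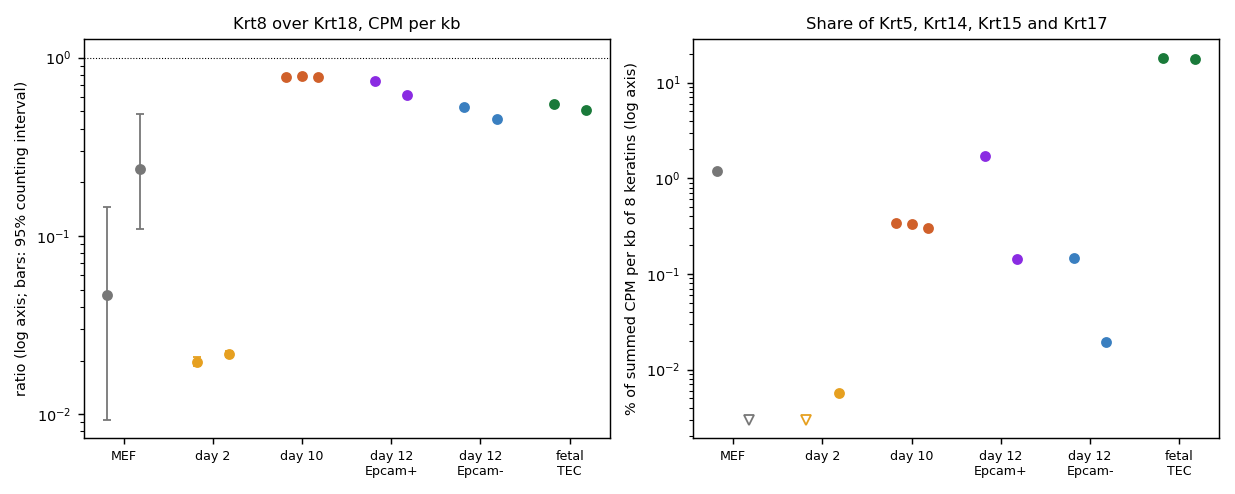
Ratio of Krt8 to Krt18 in CPM per kb of transcript (left panel, log axis, bars are 95% counting intervals) and share of Krt5, Krt14, Krt15 and Krt17 in the summed CPM per kb of the 8 simple and basal keratins (right panel, percent, log axis, open triangles mark a share of 0), for each of the 13 libraries by group. The ratio is 0.0197 and 0.0217 at day 2 and 0.451 to 0.787 in later iTECs, while the basal share is 18.3% and 17.6% in fetal TECs and at most 1.71% in any iTEC library.

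At day 12, the Epcam-negative cells held the simple pair, with each other member of the 9 at 22.4 CPM or less. Against MEFs 4 of the 9 rose, where 7.37% of all genes tested were called higher and 4.53% lower; both groups expressed Xist. Krt18 was at 825 and 933 CPM in Epcam-negative iTECs (log2 change from MEFs 10.36 ± 1.16, adjusted p = 0.000525), a range that overlapped that of day 2. Krt8 was at 597 and 573 CPM (12.18 ± 1.32, adjusted p = 0.000462) and Krt80 at 22.4 and 16.6 CPM (5.45 ± 0.39, adjusted p = 6.2e-05), each far above the MEF values given above. Krt5 was at 1.78 and 0.4 CPM, at least 44.4-fold above MEFs (adjusted p = 0.00317), and the bound was 16.3-fold without Epcam-negative replicate 1 and 72.6-fold without replicate 2. Krt7 was at 2.37 and 2.15 CPM (4.73 ± 1.39, adjusted p = 0.055), Krt19 at 6.85 and 5.89 CPM (1.5 ± 0.65, adjusted p = 0.173), and Krt14 and Krt17 had counts in 1 of the 2 libraries. These 4 did not pass. The log2 change of Krt8 was 11.34 without MEF replicate 1, and without MEF replicate 2 its ratio was 14057 (4810 to 68163).

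Against day 10, Epcam-negative iTECs had lower values for all 8 keratins that were detected, of which 1 passed the test. Few genes were called in this comparison at all, 0.0529% lower and 0.0353% higher. Krt80 fell by 2.65 ± 0.33 on the log2 scale (adjusted p = 0.0306), a call that was lost without any 1 MEF, day 2, day 10 or Epcam-negative library (0.0555 to 0.615). The log2 changes of the other 7 lay between -4.39 ± 1.22 for Krt7 and -0.65 ± 0.72 for Krt18.

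In Epcam-positive iTECs the 2 libraries differed widely on the simple keratins and less on Krt5, Krt14 and Krt17. Krt18 was at 1297 and 13384 CPM, Krt8 at 1303 and 11171 CPM, Krt7 at 13 and 347 CPM and Krt19 at 52.1 and 347 CPM. Replicate 2 was higher by many times for each of the 4, and replicate 1 was near day 10 for Krt8 and Krt18. Krt5 was at 21.6 and 21.9 CPM, Krt14 at 14.4 and 8.40 CPM and Krt17 at 14.2 and 11.1 CPM, all above every day 10 library. Krt15 had 53 counts in replicate 1, or 0.61 CPM, and none in replicate 2. Epcam itself was at 4.80 and 30.6 CPM in Epcam-positive iTECs, and fibroblast markers summed to 28764 CPM in replicate 1 and 2555 CPM in replicate 2.

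Against Epcam-negative iTECs, Krt19 and Krt80 rose in Epcam-positive iTECs, 2 of 9 genes, where 0.241% of all genes tested were called higher and 0.0176% lower. Krt19 was at 52.1 and 347 CPM in Epcam-positive iTECs, against 6.85 and 5.89 CPM in Epcam-negative iTECs (4.97 ± 0.74, adjusted p = 0.0453). Krt80 was at 61.0 and 99.5 CPM in Epcam-positive iTECs, against 22.4 and 16.6 CPM in Epcam-negative iTECs (2.04 ± 0.33, adjusted p = 0.0494). The other 7 did not pass, with fitted log2 changes of 3.06 ± 0.83 for Krt18, 3.41 ± 0.90 for Krt8, 4.33 ± 0.67 for Krt5 (adjusted p = 0.0649), 5.43 ± 1.35 for Krt14, 6.31 ± 1.37 for Krt7 and 6.60 ± 1.30 for Krt17. The groups did not overlap for 8 of the 9 genes; Krt15 overlapped at 0. Of the other lists, the keratin Krt16 (4.86 ± 0.72, adjusted p = 0.0483) and Sfn, an epithelial 14-3-3 protein (2.57 ± 0.42, adjusted p = 0.0494), rose in Epcam-positive iTECs. The call of Krt19 was lost in 14 of 21 alternatives and that of Krt80 in 16 of 21, while 8 of the 9 genes were called without Epcam-positive replicate 1 and 6 without replicate 2, in fits that called 9545 and 500 genes in all, where 44 were called with both; the log2 change of Krt19 was 5.76 and 3.03 in those fits and that of Krt7 7.26 and 2.52.

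Fetal TECs carried all 9 keratins. Per kb of transcript Krt18 was highest (8199 CPM on average), followed by Krt8 (4281) and Krt17 (2416). All 9 rose against MEFs, where 31.5% of all genes tested were called higher and 26.3% lower. Krt18 was at 8497 and 15067 CPM in fetal TECs, Krt8 at 6391 and 10372 CPM and Krt17 at 2836 and 4658 CPM. Krt7 was at 953 and 966 CPM, Krt5 at 315 and 412 CPM, Krt14 at 224 and 349 CPM, Krt19 at 122 and 129 CPM and Krt15 at 41.3 and 70.7 CPM. Krt80 was lowest on either scale, at 5.04 and 3.53 CPM, and was the single gene of the 9 with a higher level in every iTEC library than in either fetal library. Against MEFs the log2 changes were between 3.27 ± 0.36 for Krt80 (adjusted p = 0.000189) and 16.02 ± 1.48 for Krt8 (8.89e-05) among the simple keratins and Krt80. Bounds were at least 14807-fold for Krt5 (adjusted p = 8.61e-05), 11690-fold for Krt14 (0.000823) and 152651-fold for Krt17 (0.000259), and the ratio of Krt15 was 2197 (751 to 10657, adjusted p = 0.00899; 0.0677 without MEF replicate 2). Without MEF replicate 1 the log2 change of Krt8 was 15.21 and Krt7 was at least 15946-fold higher; without MEF replicate 2 that of Krt7 was 12.59 and the ratio of Krt8 195449 (66879 to 947753), and with a length offset the log2 change of Krt8 was 14.81. With MEF replicate 1 left out the bounds were 6041-fold for Krt5, 4769-fold for Krt14 and 62275-fold for Krt17, and with replicate 2 left out 8766-fold, 6921-fold and 90376-fold. Markers of other cell types were also detected in fetal TECs, with summed levels of 597 to 690 CPM for mesothelium (6 genes, Msln 556 CPM on average), 551 to 1194 CPM for thymocytes (7 genes) and 397 to 493 CPM for macrophages (6 genes), against 1.29 to 2.31, 0.923 to 1.13 and 2384 to 2411 CPM in MEFs; their part in the keratin values was not tested.

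**Figure D3:**
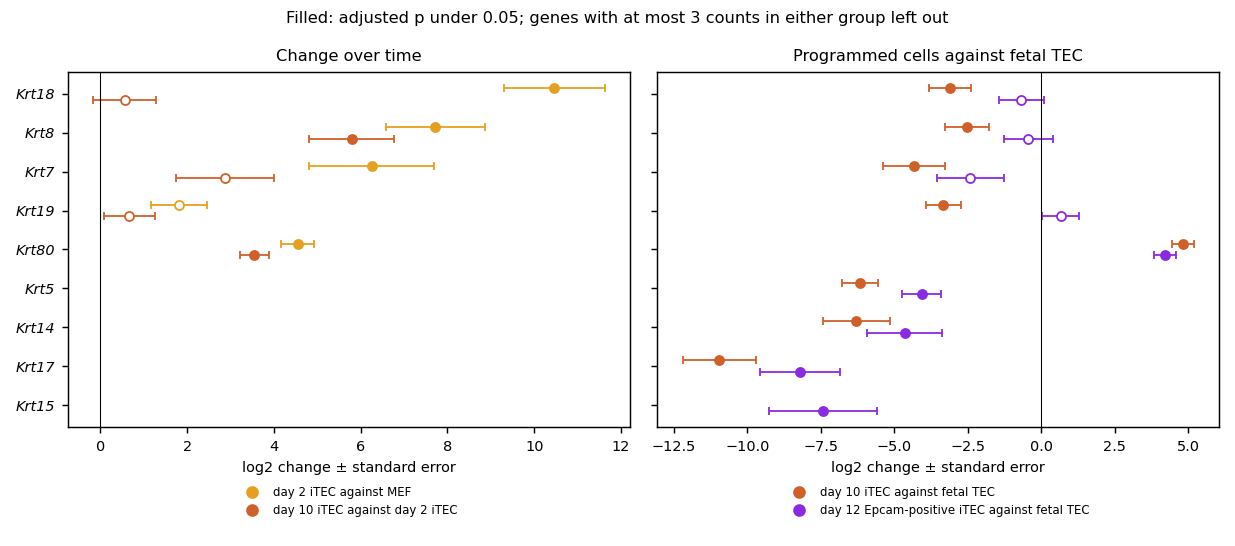
Log2 change with its SE (horizontal bars) of each keratin with more than 3 counts in both groups, for day 2 over MEF and day 10 over day 2 (left panel) and for day 10 and Epcam-positive iTECs over fetal TECs (right panel); filled points passed edgeR's test at an adjusted p under 0.05. Krt18 changes by 10.46 at day 2 and by 0.56 after it, and against fetal TECs the basal keratins lie between -10.96 and -4.06 and Krt80 above 0.

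Day 10 iTECs stood below fetal TECs for 8 of the 9 keratins and above them for Krt80. All 9 passed the test, in a comparison where 31.7% of all genes tested were called lower and 27.6% higher. In percent of the fetal TEC mean, day 10 iTECs reached 17.5 for Krt8, 11.7 for Krt18, 9.97 for Krt19 and 4.96 for Krt7. They reached 1.4 for Krt5, 1.28 for Krt14 and 0.0501 for Krt17, and Krt15 had no count. On these means each simple keratin was therefore closer to its fetal level than any basal keratin was. Over the alternatives tried, the log2 change of Krt7 went as low as -4.91, the value of Krt14 with an offset for transcript length. The log2 changes were -2.51 ± 0.75 for Krt8 (adjusted p = 0.0168), -3.09 ± 0.72 for Krt18 (0.00584), -3.33 ± 0.59 for Krt19 (0.00166) and -4.33 ± 1.05 for Krt7 (0.00714). Those of the basal genes were -6.16 ± 0.61 for Krt5 (adjusted p = 0.000248), -6.29 ± 1.15 for Krt14 (0.0025) and -10.96 ± 1.24 for Krt17 (0.000279), and Krt15 was at least 2655-fold lower (0.00367). Krt80 was at 124, 123 and 120 CPM at day 10, against 5.04 and 3.53 CPM in fetal TECs, and rose by 4.83 ± 0.37 on the log2 scale (adjusted p = 2.13e-05).

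With an offset for the loss of long transcripts in the fetal libraries, the changes of the short simple transcripts shrank, to -1.34 for Krt8 (adjusted p = 0.0669, and as much as 0.087 over all alternatives), -1.54 for Krt18 and -1.89 for Krt19, and those of Krt14, Krt5 and Krt17 to -4.91, -5.18 and -9.47. The call of Krt8 was also lost without day 10 replicate 1 or 2 or fetal TEC replicate 2; the other 8 kept theirs with the offset.

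The other epithelial keratins stood lower too, with 15 of 19 fallen and none risen (median log2 change -6.37, beside -0.11 over all genes tested). Krt20, a keratin of gut and urothelium, was at 3.36 CPM in each of the 3 day 10 libraries, against 46.7 and 57.2 CPM in fetal TECs (-3.95 ± 0.49, adjusted p = 0.000276), and Krt24, with no count at day 10, was at least 471-fold lower (0.00382). Of the 16 anchors 7 were higher and 5 lower (median 0.79), where 27.6% of all genes tested were called higher and 31.7% lower. Plec, the plectin that links keratin filaments to hemidesmosomes, was at 1133, 1116 and 1031 CPM at day 10, against 80.6 and 40.9 CPM in fetal TECs (4.17 ± 0.65, adjusted p = 0.000899). Trim29, a protein of basal epithelial cells, was at 2.74, 2.49 and 2.43 CPM at day 10, against 236 and 267 CPM in fetal TECs (-6.62 ± 0.90, adjusted p = 0.000644). Plec has a very long transcript, and long transcripts were low in the fetal libraries; the part of this in its change was not tested. Of the 16 regulators 8 fell and 3 rose, with Elf3 at 1.47, 0.999 and 1.24 CPM at day 10, against 99.4 and 186 CPM in fetal TECs (-6.84 ± 0.55, adjusted p = 6e-05), and Grhl1 higher at day 10 (2.43 ± 0.38, adjusted p = 0.000851).

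Epcam-positive iTECs also stood below fetal TECs for the basal keratins. Of the 9 genes 4 fell and 1 rose, where 16.4% of all genes tested were called lower and 19.2% higher. Krt5 changed by -4.06 ± 0.66 on the log2 scale (adjusted p = 0.00366), Krt14 by -4.65 ± 1.27 (0.023), Krt17 by -8.21 ± 1.35 (0.00289) and Krt15 by -7.43 ± 1.83 (0.0275), and Krt80 was higher by 4.23 ± 0.37 (9.19e-05). Krt5 reached 5.99% and Krt14 3.98% of their fetal TEC means in Epcam-positive iTECs, against 1.4% and 1.28% at day 10. The simple keratins did not pass: Krt8 (-0.43 ± 0.82), Krt18 (-0.68 ± 0.77) and Krt19 (0.67 ± 0.63) overlapped fetal TECs through replicate 2, and Krt7 (-2.41 ± 1.14) did not overlap. Without Epcam-positive replicate 2 all 9 were called, in a fit that called 10273 genes in all where 6052 were called with both libraries, among them Krt8 at -2.67 (adjusted p = 0.00135), Krt18 at -3.17 (8.33e-05), Krt7 at -6.19 and Krt19 at -1.25 (0.000873). Krt15 was at -6.5 without replicate 2 and had no count left without replicate 1. The call of Krt15 was lost in 7 alternatives (up to 0.223) and that of Krt14 in 3; with the groups compared fitted alone those of Krt5 (0.0535) and Krt80 (0.0651) were lost too.

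Krt5, Krt14, Krt15 and Krt17 made up 18.3% and 17.6% of the summed CPM per kb of the 8 simple and basal keratins in fetal TECs. Their share was 0.342%, 0.335% and 0.305% at day 10, 1.71% and 0.144% in Epcam-positive iTECs, 0.148% and 0.0193% in Epcam-negative iTECs, and 0% and 0.0057% at day 2. The 7 later iTEC libraries averaged 0.429% ± 0.577 (SD), against 18% ± 0.516 in the 2 fetal TEC libraries, a difference of -17.5 percentage points (exact two-sided permutation p = 0.0556, the smallest possible, 0.0741 adjusted over 4 tests). Against the 2 day 2 libraries, at 0.00285% ± 0.00403, the difference was 0.426 points with the same p-values. Both tests pool the day 10, Epcam-positive and Epcam-negative libraries, whose shares lay between 0.0193% and 1.71%. Their p-values therefore do not speak for any 1 group. Every later iTEC library lay above both day 2 libraries and below both fetal TEC libraries. Per kb, Krt17 gave most of the fetal basal part, with a level of 2416 CPM per kb, against 165 for Krt5, 169 for Krt14 and 32.9 for Krt15.

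Since filaments need both types, the members were also summed by type. The ratio of type II members (Krt5, Krt7, Krt8, Krt80) to type I members (Krt14, Krt15, Krt17, Krt18, Krt19) per kb was 0.0262 and 0.0278 at day 2 and 0.81, 0.827 and 0.809 at day 10. It was 0.728 and 0.61 in Epcam-positive iTECs, 0.539 and 0.456 in Epcam-negative iTECs, and 0.457 and 0.414 in fetal TECs. The part of transcript length in these ratios was not tested. With all 50 keratin genes that had a length and a type, day 2 stayed at 0.0274 and 0.0294, so the other type II keratins added little to the low Krt8. The 9 genes held 99.6% and 99.5% of all keratin CPM per kb at day 2, 75.2% to 76.7% at day 10, 84.6% and 88.4% in Epcam-positive iTECs, 87.4% and 89.7% in Epcam-negative iTECs, and 98.6% and 99.0% in fetal TECs.

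On the scale of log2(CPM + 0.5), Pearson's r over the 13 libraries was 0.992 for Krt5 with Krt14, 0.977 for Krt14 with Krt17, 0.925 for Krt8 with Krt18 and 0.891 for Krt7 with Krt19. Correlation did not follow the division into simple and basal genes throughout, since Krt7 had r = 0.895 with Krt5 and 0.886 with Krt14, and Krt15 had 0.836 with Krt5 and 0.447 with Krt8. Krt80 had r = 0.672 with Krt8, 0.188 with Krt5 and -0.308 with Krt15. These values describe 6 groups more than 13 independent points, since replicates share their group. Krt80 was the single member whose order of groups placed day 10 first, followed without overlap by Epcam-positive, Epcam-negative, day 2, fetal TEC and MEF libraries. An annotated antisense gene overlaps Krt80, another overlaps Krt7, and no source states whether counting used strand.

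The 9 genes lie in mm10 on chromosome 15 (Krt80 101347444 to 101370162, Krt7 101411043 to 101430313, Krt5 101707070 to 101712898, Krt8 101996698 to 102004482 and Krt18 102028180 to 102032027) and on chromosome 11 (Krt15 100131758 to 100135928, Krt19 100140810 to 100148665, Krt14 100203162 to 100207548 and Krt17 100256217 to 100261029). Krt15 and Krt19 are near neighbours, yet Krt19 was at 11.8 to 12.9 CPM at day 10 when Krt15 had no count.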

How the data were processed

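RNA of 13 libraries in 6 groups was sequenced, and the authors deposited 1 table of raw gene counts with no scaling. The submitters' processing notes name FastQC, Trimmomatic, HISAT2, SAMtools, StringTie, DESeq2 and the build mm10; the counter, its use of strand and the annotation were not given in the sources used here. Columns named for absence of Cre were taken as the MEF libraries, the only group labelled as without treatment. The MEF titles do not use that name. From the counts, edgeR 4.0.16 (R 4.3.3, limma 3.58.1) with TMM scaling, filterByExpr (17004 of 24394 genes kept), a robust quasi-likelihood fit and 1 mean per group over all 13 libraries gave every log2 change, its SE and its p-value, adjusted over all genes tested by Benjamini-Hochberg. A gene was called at an adjusted p under 0.05. Levels are CPM with TMM factors. Levels compared between genes are per kb of the longest protein-coding transcript in GENCODE M21 (mm10), which matched 95.8% of symbols. A group with no count was set to 3 counts for a bound; ratios on 1 to 3 counts and ratios of 2 genes carry 95% intervals that cover counting error only. Totals of 35805780 to 86465460 counts put 3 counts at 0.03 to 0.0776 CPM. Ratios and shares per library were compared by exact permutation. Tables and figures were made with pandas 2.3.3, matplotlib 3.10.9, scipy 1.17.1 and numpy 2.4.6 under Python 3.11.15. The fit was also run on simulated data with less spread between replicates than these data had (common dispersion 0.296). That run therefore does not measure the error rates of the fit here. The members and gene lists were chosen with earlier results of these data known. All 9 members were tested in every comparison, with some given as a range only. From a list at most the 4 genes with the smallest p are named. Alternatives were other scalings and filters, DESeq2 1.42.0, a replicate block, a length offset, fewer groups or libraries, and leaving out each library.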

Additional observations from a re-analysis of the deposited data

How the results depend on the processing

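The counts of the 9 keratins called changed with these choices. With a replicate block they were 5 in place of 8 for day 10 against MEF, 3 in place of 5 for day 10 against day 2, 0 in place of 1 for Epcam-negative iTECs against day 10 and 0 in place of 2 for Epcam-positive against Epcam-negative iTECs, where 1040, 831, 1 and 1 genes were called in all (2720, 2151, 15 and 44 without it). No label says that a replicate number marks a shared culture. Deviations of same-numbered samples correlated between -0.362 and 0.217, which cannot settle whether samples were paired. With DESeq2's Wald test they were 7 in place of 4 for Epcam-negative iTECs against MEF, 4 for Epcam-negative iTECs against day 10 and 8 for Epcam-positive against Epcam-negative iTECs, where 3771, 410 and 1802 genes were called in all (2025, 15 and 44 with edgeR). Without the 3 libraries low in long transcripts they were 8 for day 10 against day 2 and 5 for Epcam-negative iTECs against day 10, in fits that called 8373 and 1907 genes in all (2151 and 15 with all libraries). With the groups compared fitted alone they were 8 for day 10 against day 2, 7 for Epcam-negative iTECs against day 10, 0 for Epcam-positive against Epcam-negative iTECs and 1 in place of 5 for Epcam-positive iTECs against fetal TECs, where 10927, 6422, 0 and 219 genes were called in all (2151, 15, 44 and 6052 in the joint fit). The count for Epcam-positive against Epcam-negative iTECs was also 1 with DESeq2 size factors, 0 with library size alone and 1 with no filter. Leaving out 1 library gave 3 to 5 for day 2 against MEF, 5 to 8 for day 10 against MEF, 2 to 7 for day 10 against day 2, 4 to 6 for Epcam-negative iTECs against MEF, 0 to 3 for Epcam-negative iTECs against day 10, 0 to 8 for Epcam-positive against Epcam-negative iTECs, 8 to 9 for fetal TECs against MEF, 8 to 9 for day 10 against fetal TECs and 3 to 9 for Epcam-positive iTECs against fetal TECs; where a group was left with 1 library, it is assumed to vary like the others. The permuted differences ranged from 0.244 to 0.397 and from 4.91 to 5.07 for the log2 ratio against fetal TECs and day 2, and from -17.9 to -17.2 and from 0.213 to 0.494 percentage points for the basal share. Of 1563 single-gene values under alternatives 1399 kept direction and call, 69 became called, 92 lost their call and 3 reversed, all in Epcam-positive iTECs against fetal TECs, where the 3 were not called with all libraries: Krt8 at 0.43 (adjusted p = 0.4) and Krt18 at 0.20 (0.598) without Epcam-positive replicate 1, and Krt19 at -1.25 (0.000873, a call) without replicate 2; the other fits were -2.67 for Krt8 and -3.17 for Krt18 without replicate 2 and 1.48 for Krt19 without replicate 1. Scaling by library size alone moved the median of all genes by -0.286 to 0.297 on the log2 scale between comparisons, and DESeq2 size factors by -0.154 to 0.137. With library size alone the genes called numbered 2417, of which 1680 higher, for day 10 against MEF (1601 of 2720 with TMM), 1917, of which 1452 higher, for Epcam-negative iTECs against MEF (1254 of 2025), and 7, of which 5 higher, for Epcam-positive against Epcam-negative iTECs (41 of 44). The cause of these changes was not tested. Depth did not limit the simple keratins at any stage after MEF, and limits the basal keratins at day 2 to 3 counts a library.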

Other observations

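The keratin transcripts at day 10 that were none of the 9 members were mainly hair keratins, the family of hair shafts and nails. This family was singled out after its values were seen, so its values are a description with no test. Of 15 such genes 14 were in the table. They held 22.7%, 23.7% and 22.3% of all keratin CPM per kb at day 10, 10.9% and 11.1% in Epcam-positive iTECs and 11.9% and 9.84% in Epcam-negative iTECs, against 0.185% and 0.0839% in fetal TECs. At day 2 the share was 0.148% and 0.191%, and in MEFs no such gene had a count. Krt83, a type II hair keratin, was at 458, 470 and 461 CPM at day 10, 127 and 1227 CPM in Epcam-positive iTECs and 86.5 and 110 CPM in Epcam-negative iTECs, against 3.34 and 1.74 CPM in fetal TECs. Its day 2 level was 1.32 and 1.79 CPM. Krt33a, a type I hair keratin, was at 268, 266 and 285 CPM at day 10, against 0.199 and 1.38 CPM in fetal TECs. Krt34 was at 51.2, 54.9 and 51.4 CPM at day 10 and had no count in fetal TECs or MEFs. Every day 10 library was thus above both fetal TEC libraries for these 3 genes. Krt31, Krt33a and Krt34, and Krt81, Krt83 and Krt86, are close relatives whose reads the counting may split.

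The genes outside the keratins whose levels were most like those of 3 members were ranked by Pearson's r of log2(CPM + 0.5) over the 13 libraries among 13466 genes, as a description. For Krt8 they were Nqo1 (0.984), Cds1 (0.983), Ccl25 (0.983), Ovol1 (0.982) and Myzap (0.976). For Krt5 they were Endou (0.993), Sprr2a3 (0.983), Alas2 (0.98), Epcam (0.979) and Vwa1 (0.977). For Krt80 they were Endod1 (0.964), Ggact (0.96), C1qtnf4 (0.954), Serpinb9b (0.952) and Col8a2 (0.952).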
